A study of Mus musculus with 14 samples.

Results

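The genes described here are 10 genes of bone morphogenetic protein (BMP) signalling, named as a list by symbol: the ligands Bmp2, Bmp4 and Bmp7, the receptor Bmpr1a, the secreted antagonist Fst, the inhibitory SMADs Smad6 and Smad7, and the target genes Id1, Id2 and Id3. They were taken from a table of 54332 genes, in which each of the 10 was listed once. The unit is TPM, a share of all transcripts scaled by transcript length. All 10 were among the 13110 genes that were tested, those whose mean over the time course reached 1 TPM. The list is by gene name and has no threshold on a measured value, but it was chosen with earlier results of these data known.

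BMPs are secreted ligands that assemble type I receptors such as BMPR1A with type II receptors, which leads to phosphorylation of SMAD1, SMAD5 and SMAD9, and these enter the nucleus together with SMAD4. Their best-known direct targets are the Id genes, which encode helix-loop-helix proteins without a DNA-binding region that hold E proteins off DNA, and SMAD6 and SMAD7, which feed back on the receptors. In skin, BMPs are known to restrain hair follicle formation and to hold hair follicle stem cells at rest, whereas secreted BMP antagonists accompany the start of a follicle.

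RNA was measured by RNA-seq in sorted epidermal stem cells (EpdSCs) of mouse back skin, with 2 libraries at each of 5 timepoints: D0 and weeks W1, W2, W6 and W12 after doxycycline (DOX) switched on a MYC-tagged Sox9 transgene. Every library, D0 included, was labelled K14rtTA; TRE-myc-Sox9, strain CD1 and male, so that rtTA, and with it the transgene, is driven in cells that use the Krt14 promoter. DOX was injected at P21 and followed by DOX feed, and the labelled ages were P21 at D0, P28 at W1, P35 at W2 and P63 at W6, whereas W12 was labelled grafted. The sort kept cells low in CD31, CD45, CD117, CD140a and CD34 and high in CD49f and Ly6A. The W12 cells came from newborn skin that had healed on immunocompromised female Nude hosts before DOX was given, so 12 weeks of induction and grafting cannot be told apart. Age rose with time on DOX, and RNA of mice without the Sox9 transgene was not analysed here, so age and induction cannot be told apart either.

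The transgene was at 89.6 and 45.6 TPM in the D0 libraries, at 3387 and 3414 TPM at W1, and between 606 and 1892 TPM from W2 to W12. The 8 basal epidermal markers summed to between 32063 and 48649 TPM in every library, most of it Krt14 and Krt5. Others of the 8 were lower at W12 than at D0, with Trp63 at 126 and 119 TPM against 291 and 654 TPM and Col17a1 at 224 and 283 TPM against 686 and 1083 TPM, whereas Krt14 (35371 and 37666 TPM against 29902 and 31097 TPM) and Ly6a (1168 and 1109 TPM against 756 and 565 TPM) were higher. Of the 6 bulge markers, Krt15 was lower at W12 (322 and 242 TPM against 11241 and 11928 TPM) and Tbx1 and Cd34 were higher, with Cd34, which the sort selects against, at 16.5 and 32.0 TPM against 0.0614 and 0.383 TPM. D0 replicate 2, labelled male, held 4.61 TPM of Xist and 0.0278 TPM of the Y-linked Ddx3y, against 0.00103 and 32.1 TPM in D0 replicate 1, and the W12 libraries held 5.51 and 3.50 TPM of Xist beside 10.97 and 12.9 TPM of Ddx3y. The hosts of the W12 grafts were female, and the part of host cells in the W12 values was not tested. The tests against D0 were repeated without D0 replicate 2, and calls that ended are named beside the results. All calls of Bmp2, Bmp4 and Bmp7 against D0 held without it. The D0 libraries stood apart in 18 immediate-early and stress genes, which summed to 35664 and 58583 TPM against 7081 to 15492 TPM in the 8 later libraries. The W12 libraries stood apart in 6 endothelial markers, which summed to 68.7 and 167 TPM against at most 5.21 TPM elsewhere, although the sort removes CD31+ cells: Pecam1, which encodes CD31, was at 26.1 and 59.8 TPM, whereas Cdh5 was at 1.61 and 3.64 TPM. Of the 7 immune markers, Cd74 and H2-Aa carried the W12 sums of 147 and 163 TPM, against 4.56 to 36.1 TPM elsewhere, and Ptprc was at most 0.327 TPM in any library. The 7 fibroblast markers summed to 52.2 TPM in W6 replicate 2, of which Dcn made up 51.2 TPM, to 13.8 and 28.1 TPM at W12, again mostly Dcn (13.2 and 27.2 TPM), and to at most 4.11 TPM in the other libraries. Of the 6 adipocyte and muscle markers, Fabp4 was at 165.5 and 255.8 TPM at W12 and at most 2.63 TPM elsewhere, whereas Adipoq was listed at 0 in all libraries. The part of these in the results below was not tested. In bulk RNA of sorted cells, fewer cells of a type and less RNA per cell cannot be told apart.

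The 3 Id genes are near relatives, so their sequences bear on whether their values are separate measurements. The coding stretch of 120 bases over the helix-loop-helix is shown for each, with the 77 bases that are the same in all 3 genes in capitals. On GRCm38 it lies in a single exon at chr2:152736518-152736637 (plus strand) in Id1, at chr12:25095783-25095902 (minus strand) in Id2 and at chr4:136144002-136144121 (plus strand) in Id3.
Id1: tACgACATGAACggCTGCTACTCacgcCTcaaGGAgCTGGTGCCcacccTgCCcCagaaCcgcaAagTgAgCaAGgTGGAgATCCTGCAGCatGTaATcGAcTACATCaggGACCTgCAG
Id2: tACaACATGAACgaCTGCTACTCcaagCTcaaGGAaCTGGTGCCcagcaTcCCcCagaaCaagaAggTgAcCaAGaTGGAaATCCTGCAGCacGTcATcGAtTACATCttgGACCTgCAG
Id3: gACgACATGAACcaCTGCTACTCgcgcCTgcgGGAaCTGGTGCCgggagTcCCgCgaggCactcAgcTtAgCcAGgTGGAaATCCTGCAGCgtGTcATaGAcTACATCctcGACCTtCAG
Id1 and Id2 were the same at 81.7% of these bases, Id1 and Id3 at 70.8%, and Id2 and Id3 at 71.7%. The differences were spread along the stretch. The transcripts of Id1 and Id3 shared no stretch of 31 bases with any other gene of the annotation, out of 1157 and 1760 such stretches, and Id2 shared 39 of 2433, all with Gm6175. None of the 3 shared such a stretch with another of the 3.

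Against this background, Bmp2 and Bmp4 were lower at W2, W6 and W12 than at D0, Bmp7 was higher at W1, W2 and W6, and Bmpr1a passed the test in no comparison. Id1 and Id3 were lowest at different times, Id1 at W1 and Id3 at W6, and Id1 was back near its D0 level in the grafted W12 libraries. At W1, 4 of the 10 genes passed the test against D0, 1 higher and 3 lower, beside 9.89% of all genes tested (5.79% higher and 4.10% lower). At W2 it was 6 of 10 (2 higher, 4 lower) beside 15.7% (9.06% and 6.64%), at W6 6 of 10 (3 and 3) beside 32.4% (18.3% and 14.1%), and at W12 4 of 10 (2 and 2) beside 43.0% (17.9% and 25.1%). The share of the 10 genes at W12 was thus near that of all genes, whose split of 2352 higher and 3290 lower became 2947 higher and 2916 lower after median-ratio scaling. The median log2 change of the 10 genes was −0.54, −0.42, −0.77 and 0.00 at W1, W2, W6 and W12, and that of all genes tested was 0.09, 0.06, 0.08 and −0.08. Without D0 replicate 2, the counts were 3, 3, 5 and 3 of 10, without W1 replicate 2 the W1 count was 2, and without W2 replicate 2 the W2 count was 3. All 4 comparisons share the D0 libraries. The 10 genes were chosen with earlier results of these data known, so these counts describe the list and are no test of it.

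**Figure D1:**
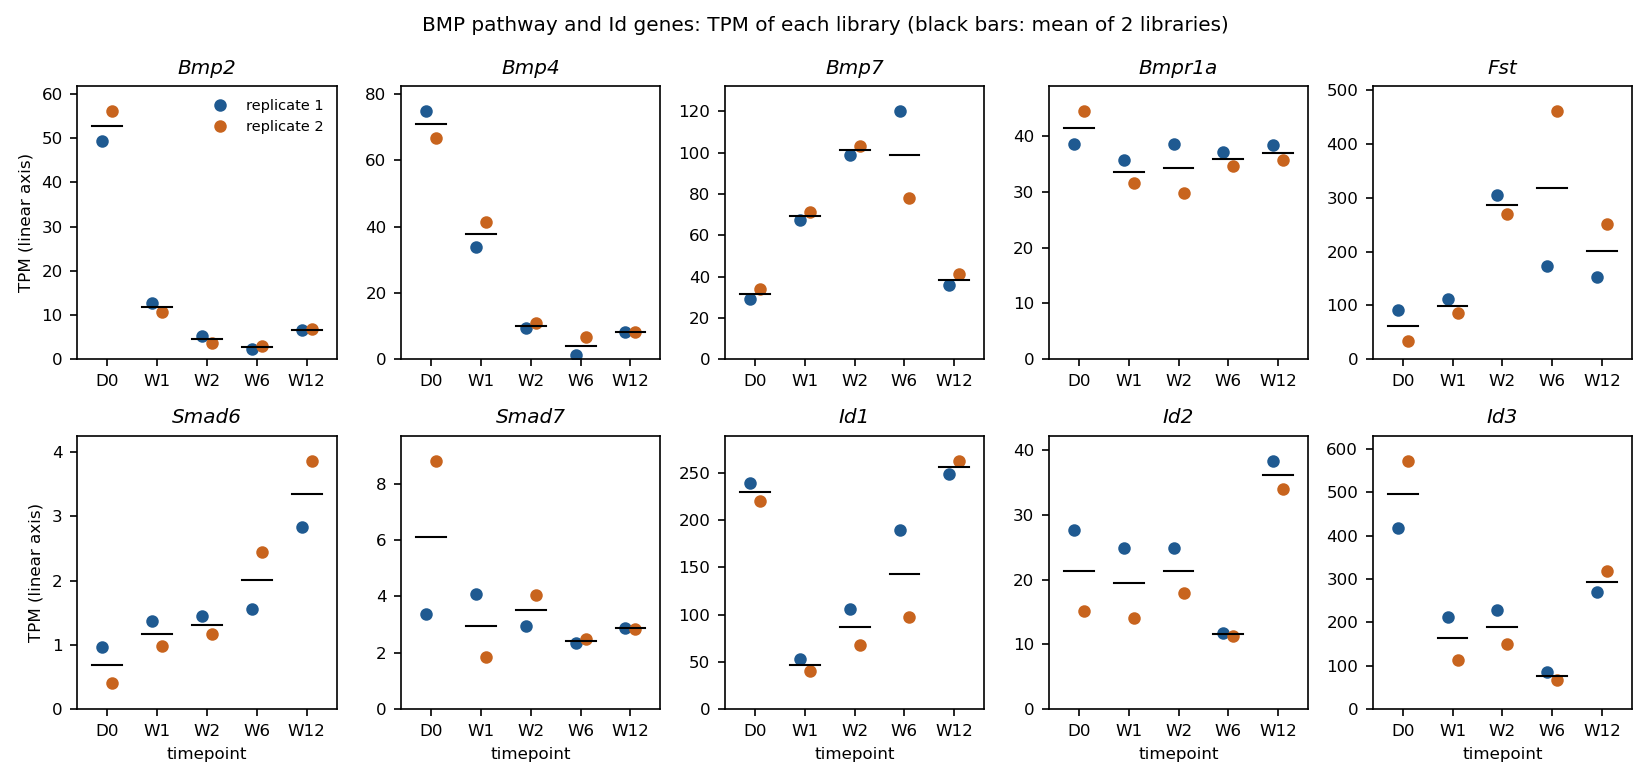
TPM of the 10 genes (linear y axis from 0, 1 panel a gene) in each library at D0, W1, W2, W6 and W12; blue points are replicate 1, orange points replicate 2 and black bars the mean of the 2. Bmp2 falls from a mean of 52.8 TPM at D0 to 2.68 TPM at W6, Bmp7 peaks at W2 and W6, and Id1 and Id3 have their lowest means at W1 and W6.

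Among the ligands, Bmp2 (chr2:133552159-133562885, GRCm38), which signals through BMPR1A, had the strongest fall relative to its error. Bmp2 was at 49.3 and 56.2 TPM at D0, 12.7 and 10.8 TPM at W1, 5.28 and 3.77 TPM at W2, 2.43 and 2.92 TPM at W6, and 6.52 and 6.77 TPM at W12. Every later library was below both D0 libraries, and the W12 libraries lay above both W6 libraries and below both W1 libraries. The mean fell from 52.8 ± 4.86 TPM at D0 (SD, n = 2) to 11.7 ± 1.36 TPM at W1, and its fall by W6 was 19.7-fold. On the log2(TPM + 1) scale the change from D0 was −2.08 ± 0.20 (SE) at W1 (limma with Benjamini-Hochberg adjustment, adjusted P = 0.00062), −3.29 at W2 (adjusted P = 7.24e-05), −3.87 at W6 (adjusted P = 4.1e-05) and −2.81 at W12 (adjusted P = 2.84e-05), with the same SE. The order of the means was D0, W1, W12, W2, W6, and the neighbours W12 and W2 (adjusted P = 0.0787) and W2 and W6 (adjusted P = 0.0786) did not pass the test, while the fall from W1 to W12 did (−0.73, adjusted P = 0.0163, lost without W1 replicate 1 or either W12 library). Bmp2 ranked 2803rd of all genes by TPM at D0 and 11089th at W6.

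Bmp4 (chr14:46383520-46390669), which acts on the same receptors as Bmp2, first passed the test against D0 at W2. Its mean at W1 was already 53.1% of that at D0, and its timing was not tested against that of Bmp2. Bmp4 was at 74.9 and 66.8 TPM at D0, 33.8 and 41.5 TPM at W1, 9.32 and 10.9 TPM at W2, 1.31 and 6.73 TPM at W6, and 8.35 and 8.15 TPM at W12. The libraries of W1 lay below both of D0, those of W2 below both of W1, and those of W6 below all others, but the pair at W6 was wide apart. The change from D0 was −0.90 ± 0.45 at W1 on the log2(TPM + 1) scale, which did not pass the test (adjusted P = 0.25), then −2.69 at W2 (adjusted P = 0.00541), −4.09 at W6 (adjusted P = 0.000474) and −2.96 at W12 (adjusted P = 0.00132). No pair of neighbours in the order D0, W1, W2, W12, W6 passed the test. A pair of genes on the opposite strand, Gm15217 and Gm15222, overlaps Bmp4, and they were at no more than 0.146 and 0.543 TPM.

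Bmp7 (chr2:172868012-172940321), a ligand of another branch of the BMP family, moved in the opposite direction up to W6. Bmp7 was at 29.2 and 33.8 TPM at D0, 67.3 and 71.3 TPM at W1, 99.04 and 103 TPM at W2, 120.3 and 78.0 TPM at W6, and 36.1 and 41.1 TPM at W12. The libraries of W1, W2 and W6 all lay above those of D0 and W12, and those of W12 lay just above those of D0. The log2 change from D0 was 1.11 ± 0.20 at W1 (adjusted P = 0.0103), 1.65 at W2 (adjusted P = 0.00127), 1.59 at W6 (adjusted P = 0.000837) and 0.28 at W12 (adjusted P = 0.282), and the fall from W6 to W12 passed the test (−1.31, adjusted P = 0.00396). In the order of the means W2, W6, W1, W12, D0, the neighbours W1 and W12 were the pair that passed, a call lost without W1 replicate 2 (adjusted P = 0.0624) or W12 replicate 1 (adjusted P = 0.0699). The W1 call missed the threshold without either W1 library (adjusted P = 0.056 and 0.0905).

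TPM are scaled by transcript length, so the 3 ligands can be set side by side as levels. Their summed level was 154 and 157 TPM at D0, 114 and 124 TPM at W1, 114 and 118 TPM at W2, 124 and 87.6 TPM at W6, and 50.9 and 56.0 TPM at W12. Bmp7 made up 19.1% and 21.6% of this sum at D0, 59.2% and 57.7% at W1, 87.2% and 87.6% at W2, 97.0% and 89.0% at W6, and 70.8% and 73.4% at W12. At D0, Bmp4 had the largest share in both libraries (48.8% and 42.6%), and from W1 on Bmp7 had the largest share in every library. The sum thus stayed within 87.6 to 124 TPM from W1 to W6 while its makeup moved towards Bmp7, and it was lowest at W12.

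**Figure D2:**
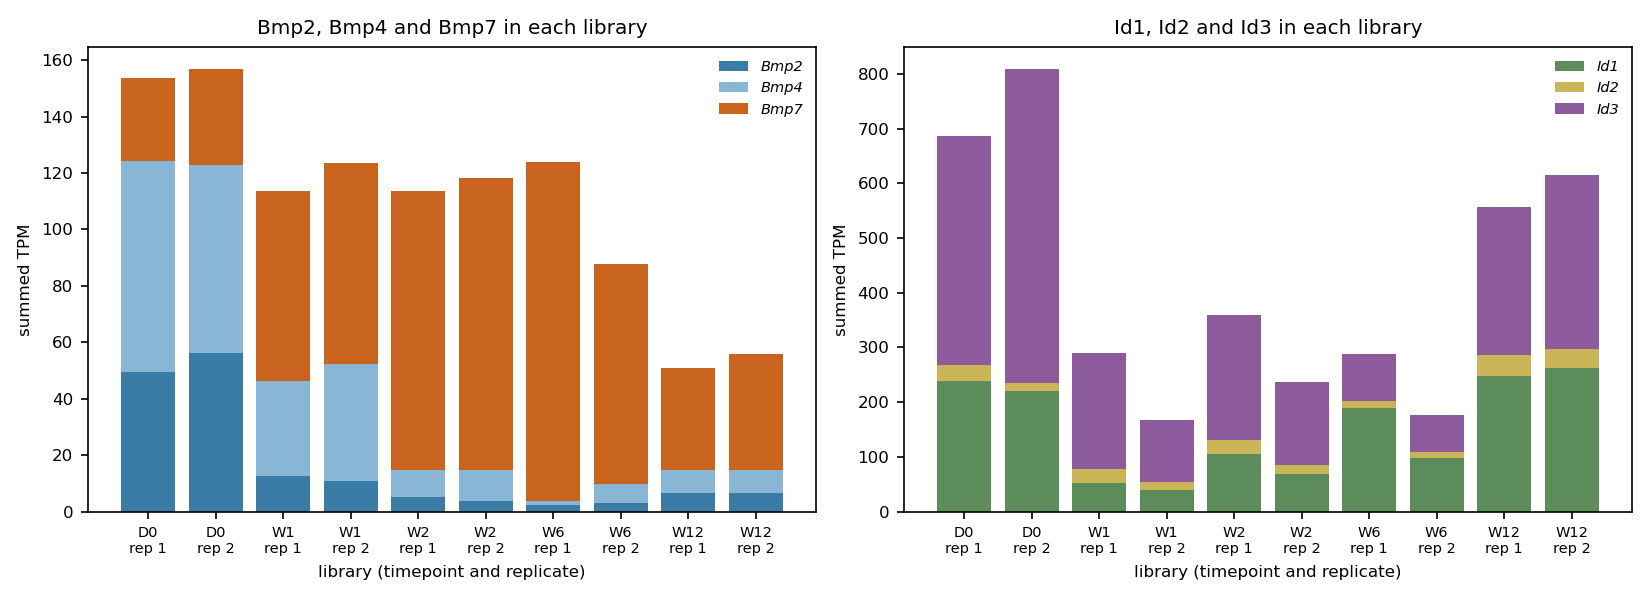
Summed TPM (y axis from 0) of Bmp2, Bmp4 and Bmp7 (left) and of Id1, Id2 and Id3 (right) in each of the 10 libraries, stacked by gene. Bmp7 makes up at least 57.7% of the ligand sum in every library after D0, and Id1 exceeds Id3 only in the W6 libraries.

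The other ligands of the family fell into those measured and those near 0. Bmp3, which opposes other BMPs, fell from 27.7 and 20.3 TPM at D0 to no more than 3.004 TPM later, and its change passed the test at all 4 timepoints, from −3.85 at W2 (adjusted P = 0.00215) to −2.93 at W12 (adjusted P = 0.00282). Bmp6, a relative of Bmp7, rose from 0.291 and 0.127 TPM at D0 to 3.63 and 4.17 TPM at W1 (2.02, adjusted P = 0.00501) was again higher at W2 (1.80, adjusted P = 0.00613), did not pass at W6 (0.63, adjusted P = 0.148), and its rise at W12 (1.25, adjusted P = 0.0119) did not pass without D0 replicate 2 or without W12 replicate 1. Each W1 and W2 call of Bmp6 was lost without replicate 2 of that week. Bmp5, Bmp8a, Bmp8b, Bmp10, Bmp15, Gdf2, Gdf5, Gdf6 and Gdf7 were not tested, and the highest of them in any library was Bmp8b at 0.232 TPM.

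Bmpr1a (chr14:34410734-34503341), the type I receptor through which BMP2 and BMP4 act in skin, had the smallest ratio between its highest and lowest mean of the 10 genes. Bmpr1a was at 38.5 and 44.5 TPM at D0, 35.7 and 31.5 TPM at W1, 38.5 and 29.8 TPM at W2, 37.2 and 34.5 TPM at W6, and 38.3 and 35.7 TPM at W12. Its libraries at D0 and W2 overlapped, and the highest mean was 1.23 times the lowest. None of its changes from D0 passed the test, and the intervals at 95% ran from −0.67 to 0.08 at W1 and from −0.54 to 0.22 at W12 on the log2 scale. An antisense gene, Gm17110, overlaps it at 1.68 to 6.75 TPM and shares 260 of the 6380 stretches of 31 bases of Bmpr1a.

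Of the other receptors, 5 of 6 were tested and the type I receptor Bmpr1b, at 0.168 to 2.83 TPM, was not. The type II receptor Bmpr2 stayed between 2.996 and 4.06 TPM and the type I receptor Acvr1 between 4.08 and 8.65 TPM, and neither passed the test at any timepoint. The type II receptors of activins and BMPs differed: Acvr2b rose from 2.94 and 4.18 TPM at D0 to 9.67 and 11.9 TPM at W2 (1.38, adjusted P = 0.00656, lost without W2 replicate 2), and Acvr2a fell from 16.6 and 23.6 TPM at D0 to 7.55 and 7.11 TPM at W12 (−1.32, adjusted P = 0.00153). Acvr2a was also lower at W1 and W6, and both of these calls were lost without D0 replicate 2 (adjusted P = 0.158 and 0.081). Acvrl1, a type I receptor known from blood vessels, was lower at W6 (−1.91, adjusted P = 0.00747, lost without D0 replicate 2). The signalling SMADs Smad1, Smad4 and Smad5 passed in no comparison at W1, W2 or W6. At W12, Smad1 (−0.77, adjusted P = 0.011) and Smad4 (−0.84, adjusted P = 0.0342), the latter added after its values were seen, were lower, with both calls lost without D0 replicate 2 and that of Smad4 also after median-ratio scaling, and Smad9 was at no more than 0.0209 TPM.

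Fst (chr13:114452290-114458951) encodes follistatin, a secreted protein that binds activins and some BMPs. Fst was at 91.8 and 33.3 TPM at D0, 112 and 86.5 TPM at W1, 304 and 269.8 TPM at W2, 173 and 461 TPM at W6, and 152 and 250.5 TPM at W12. All libraries from W2 on lay above both D0 libraries, whereas W1 and D0 overlapped, and the pairs at D0 and W6 each differed by more than 2-fold. The log2 change from D0 was 2.35 ± 0.53 at W2 (adjusted P = 0.0204), 2.33 at W6 (adjusted P = 0.0119) and 1.80 at W12 (adjusted P = 0.0248), and 0.82 at W1 did not pass (adjusted P = 0.379). Without D0 replicate 2, the lower of the D0 libraries, the change was 1.63 at W2 (adjusted P = 0.0954), 1.61 at W6 (adjusted P = 0.0758) and 1.08 at W12 (adjusted P = 0.167), so that no call of Fst was left. The W2 call was also lost without either W2 library (adjusted P = 0.107 and 0.096), the W6 call without W6 replicate 2 (adjusted P = 0.0646), and the W12 call without either W12 library (adjusted P = 0.055 and 0.151). The antisense gene Gm47040, at 0.0502 to 3.11 TPM, overlaps it.

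Of the 14 other secreted antagonists listed, 7 were tested, and they did not move as one. Sostdc1, which binds BMPs and also acts in Wnt signalling, was at 316 and 154 TPM at D0, 1409.7 and 1456 TPM at W1, 1692 and 1205 TPM at W2, 615 and 1026 TPM at W6, and 196 and 226 TPM at W12. Its libraries at W1, W2 and W6 lay above both at D0, with a log2 change of 2.69 at W1 (adjusted P = 0.00238), 2.69 at W2 (adjusted P = 0.00175) and 1.84 at W6 (adjusted P = 0.0055), and at W12 it was −0.07 (adjusted P = 0.891). Nbl1, Htra1, Twsg1 and Fstl3 passed the test neither at W1 nor at W2 and were lower at W6 and W12, and these calls held without D0 replicate 2. Nbl1, a secreted BMP binder, fell most, from 177 and 243 TPM at D0 to 26.7 and 32.3 TPM at W12 (−2.78, adjusted P = 3.46e-05), and Htra1, a secreted protease, fell from 389 and 445 TPM to 102 and 136 TPM at W6 (−1.81, adjusted P = 0.000192). Fstl1 was higher at W12 alone, at 8.99 and 15.2 TPM against at most 2.87 TPM in other libraries (3.17, adjusted P = 0.00061), in the libraries that also held endothelial markers. Nog, which encodes noggin and was added here after its values were seen, rose from 1.04 and 1.64 TPM at D0 to 2.93 and 3.63 TPM at W2 (0.88, adjusted P = 0.0489), a call lost without any 1 of the 4 libraries. Chrd, Chrdl1, Chrdl2, Grem1, Bmper and Sost were each at no more than 0.202 TPM and were not tested.

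Smad6 (chr9:63953076-64022059), which blocks the type I receptors of BMPs, had the lowest mean over all libraries of the 10 genes, although Smad7 was lower in W12 replicate 2 and Bmp4 in W6 replicate 1. Smad6 was at 0.973 and 0.402 TPM at D0, 1.37 and 0.981 TPM at W1, 1.44 and 1.17 TPM at W2, 1.56 and 2.45 TPM at W6, and 2.84 and 3.87 TPM at W12. Its means rose in the order of the timepoints, and the W12 libraries lay above all others, but no neighbouring pair passed the test. The log2 change from D0 was 1.38 ± 0.27 at W12 (adjusted P = 0.00434) and 0.84 at W6 (adjusted P = 0.0443), and the W6 call was lost without D0 replicate 2 (adjusted P = 0.23) and without W6 replicate 2 (adjusted P = 0.158). Quantile normalization also ended it (0.51, adjusted P = 0.118), as did fits with all genes above 0 TPM, with only the 4 libraries compared and without the grafted libraries (adjusted P between 0.0529 and 0.164). W12 was also higher than W1 (0.996, adjusted P = 0.017, lost without W1 replicate 2 or W12 replicate 2) and W2 (0.91, adjusted P = 0.0259, lost without either W2 library or W12 replicate 2). SMAD6 is known to be abundant in endothelium, whose markers were present at W12, and their part was not tested. At these low levels a log2(TPM + 1) change understates the change of TPM, which was 4.88-fold between the means at D0 and W12.

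Smad7, which blocks both BMP and TGF-β receptors, was at 3.37 and 8.81 TPM at D0, 4.07 and 1.84 TPM at W1, 2.96 and 4.05 TPM at W2, 2.34 and 2.50 TPM at W6, and 2.89 and 2.83 TPM at W12. Only D0 replicate 2 stood above 4.07 TPM. No change from D0 passed the test, with log2 changes of −0.94 to −0.55 and an SE of 0.40. When D0 replicate 2 was the lone D0 library, the changes at W1 (−1.37, adjusted P = 0.0456), W6 (−1.52, adjusted P = 0.0136) and W12 (−1.35, adjusted P = 0.018) passed, and against D0 replicate 1 alone none did. The direction of Smad7 at W2 therefore rests on the D0 library whose sex genes go against its label.

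Of the 6 other intracellular inhibitors, all tested, Skil and Ski encode proteins that repress SMAD complexes. Skil was lower at W1 (−1.30, adjusted P = 0.0114), W2 and W6 and higher at W12 (0.90, adjusted P = 0.0158), with 14.6 and 19.9 TPM at D0, 7.79 and 5.10 TPM at W1, and 28.6 and 37.4 TPM at W12. Its lower calls were all lost without D0 replicate 2, and the W12 call without D0 replicate 1 or without W12 replicate 2. Ski fell from 36.2 and 49.8 TPM at D0 to 10.5 and 14.3 TPM at W12 (−1.71, adjusted P = 0.00297). Smurf2, a ubiquitin ligase of this pathway, was lower at W6 and W12 by less than 0.7 on the log2 scale, with both calls lost without D0 replicate 2 (adjusted P = 0.154 and 0.0683), and Smurf1, Ppm1a and Bambi passed at no timepoint.

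Id1 (chr2:152736251-152737410), the target most often used as a readout of BMP signalling, fell early and was back near its D0 level in the grafted W12 libraries. Those libraries also held endothelial markers, whose part was not tested. Id1 was at 239.5 and 220.1 TPM at D0, 52.7 and 40.1 TPM at W1, 106 and 68.0 TPM at W2, 189.7 and 97.4 TPM at W6, and 249 and 263 TPM at W12. The W1 libraries were the lowest of all, those of W2 and W6 overlapped, and those of W12 lay just above those of D0. The mean at W1 was 20.2% of that at D0, and the log2 change was −2.29 ± 0.31 at W1 (adjusted P = 0.0028), −1.42 at W2 (adjusted P = 0.0176), −0.75 at W6 (adjusted P = 0.0966) and 0.15 at W12 (adjusted P = 0.716), with an interval at W12 from −0.56 to 0.87. The W6 change was −1.23 and passed without W6 replicate 1 (adjusted P = 0.0176), and it was −0.27 without W6 replicate 2 (adjusted P = 0.485). The W2 call was lost without either D0 library (adjusted P = 0.052 and 0.0574) and without W2 replicate 2 (adjusted P = 0.137). Against W1, Id1 was higher at W6 (1.54, adjusted P = 0.0112, lost without W1 replicate 2) and W12 (2.45, adjusted P = 0.0005), and no neighbouring pair in the order W12, D0, W6, W2, W1 passed the test.

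Id3 (chr4:136143497-136145755), the highest of the 10 genes at D0, had its lowest libraries at W6. Id3 was at 419 and 573 TPM at D0, 213 and 114 TPM at W1, 229 and 151 TPM at W2, 86.2 and 67.9 TPM at W6, and 269 and 318 TPM at W12. Both D0 libraries lay above all others, both W6 libraries below all others, and W1 and W2 overlapped. The log2 change from D0 was −1.65 ± 0.32 at W1 (adjusted P = 0.0138), −1.39 at W2 (adjusted P = 0.0209), −2.66 at W6 (adjusted P = 0.000663) and −0.74 at W12 (adjusted P = 0.0899). Without D0 replicate 2 the W6 change still passed, but those at W1 (adjusted P = 0.0692) and W2 (adjusted P = 0.0979) did not. The W1 and W2 calls were also lost without replicate 2 of that week (adjusted P = 0.103 and 0.154). In the order D0, W12, W2, W1, W6, only W1 and W6 passed as neighbours, at an adjusted P of 0.04998 that rose to 0.068 after median-ratio scaling and to 0.274 without W1 replicate 1.

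Id2 (chr12:25093799-25097140), a target of BMPs and of other signals, passed the test at no timepoint against D0 in the unblocked fit of all 10 libraries. Id2 was at 27.7 and 15.2 TPM at D0, 24.9 and 14.0 TPM at W1, 24.9 and 17.95 TPM at W2, 11.8 and 11.3 TPM at W6, and 38.4 and 34.0 TPM at W12. D0, W1 and W2 overlapped, W6 lay below all other libraries and W12 above them. The log2 change from D0 was −0.78 ± 0.33 at W6 (adjusted P = 0.0978) and 0.79 at W12 (adjusted P = 0.0803). Without D0 replicate 2, the lower of the D0 pair, the W6 change was −1.19 and passed (adjusted P = 0.0444), and without D0 replicate 1 the W12 change was 1.20 and passed (adjusted P = 0.0199). The change from W6 to W12 was 1.57 (adjusted P = 0.0131). No neighbouring pair in the order W12, D0, W2, W1, W6 passed. The W12 libraries that were high in Id2 were also those high in Cd74 and in endothelial markers.

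The summed level of the 3 Id genes was 686 and 808 TPM at D0, 290 and 168 TPM at W1, 359 and 237 TPM at W2, 288 and 177 TPM at W6, and 556 and 615 TPM at W12. Every library from W1 to W6 was at or below 359 TPM and every library of D0 and W12 at or above 556 TPM. Id1 was at 0.572 and 0.384 times the level of Id3 at D0, at 0.247 and 0.353 times at W1, at 2.20 and 1.44 times at W6, and at 0.923 and 0.826 times at W12. The W6 libraries were thus the ones in which Id1 exceeded Id3. The D0 libraries, in which this sum was high, were also those with the high immediate-early genes, and the part of that in the fall after D0 was not tested.

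**Figure D3:**
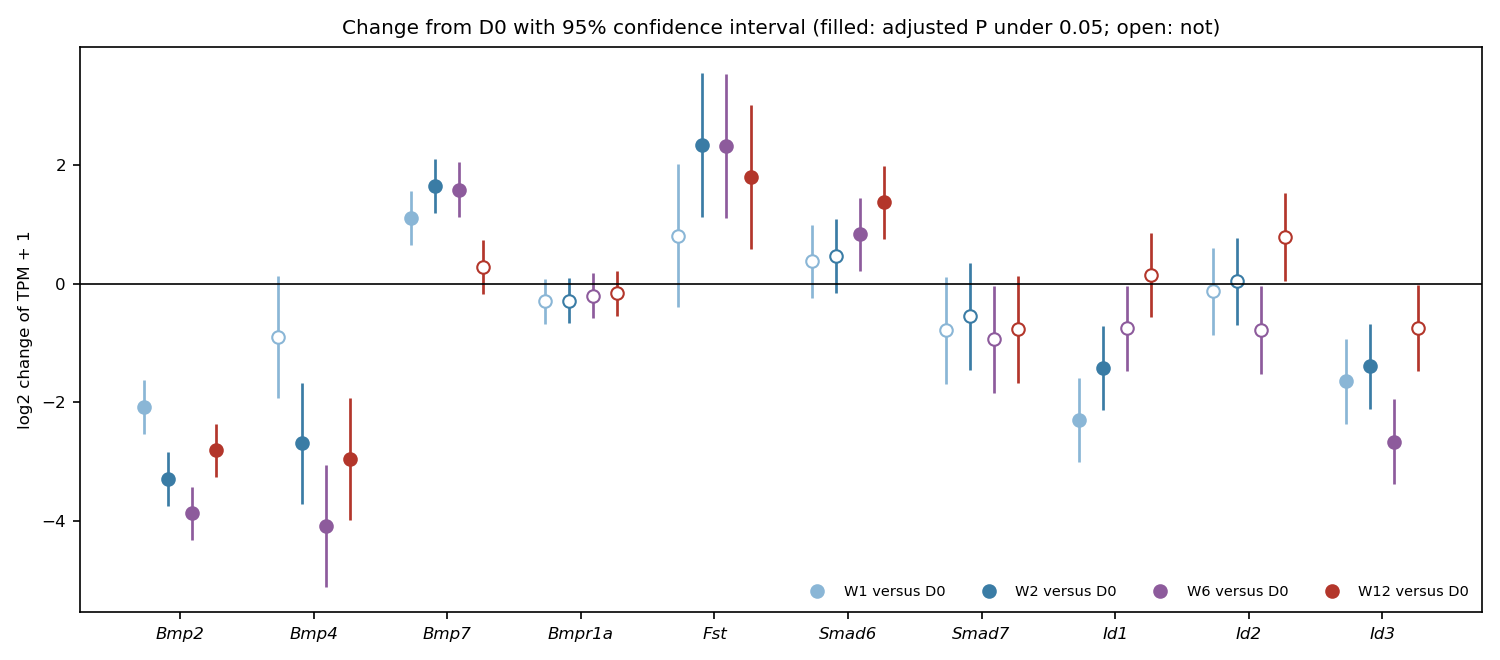
Change from D0 on the log2(TPM + 1) scale (y axis) of the 10 genes (x axis) at W1, W2, W6 and W12, with 95% confidence intervals from the limma fit of 10 libraries; filled points have an adjusted P under 0.05. Bmp2 is below 0 at all 4 timepoints, Bmp7 above 0 up to W6, and Id1 is at −2.29 at W1 and at 0.15 at W12, which was grafted.

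Steps between successive timepoints asked when the changes took place. From W1 to W2, none of the 10 genes passed the test, beside 0.114% of all genes that did (15 genes), and 5 of the 10 had an unadjusted P under 0.05. From W2 to W6, Id3 alone passed (−1.27, adjusted P = 0.0327), beside 16.3% of all genes, and this call was lost without either W2 library (adjusted P = 0.2 and 0.0735), without W6 replicate 2 (adjusted P = 0.132) and when the grafted libraries were left out of the fit (adjusted P = 0.0584). From W6 to W12, 4 of 10 passed, 3 higher and 1 lower, beside 20.2% of all genes (6.66% higher and 13.5% lower). Id3 was higher by 1.92 (adjusted P = 0.0053), Id2 by 1.57 (adjusted P = 0.0131) and Bmp2 by 1.06 (adjusted P = 0.00878), and Bmp7 was lower by 1.31. The Bmp2 and Id2 calls missed the threshold without either W12 library (adjusted P between 0.0517 and 0.0977), and the Id2 call also without W6 replicate 1 (adjusted P = 0.0516). Bmp4, at −1.39 from W2 to W6 and 1.13 from W6 to W12, passed neither step, and both passed when W6 replicate 2 was left out (adjusted P = 0.00207 and 0.00109). Id1, at 0.67 and 0.91 in these steps, passed from W2 to W6 without W6 replicate 2 (1.15, adjusted P = 0.0442) and from W6 to W12 without W6 replicate 1 (1.38, adjusted P = 0.0226). The median change of all genes from W6 to W12 was −0.16 and became −0.01 after median-ratio scaling, under which the same 4 genes passed. That scaling also turned the split of all genes past the threshold from 873 higher and 1769 lower to 1171 higher and 957 lower. The count of 4 became 2 without either W12 library. Between the timepoints that are not successive, 4 of the 10 genes passed in W6 against W1 (beside 22.9% of all genes), 7 in W12 against W1 (44.4%) and 3 in W12 against W2 (42.9%), and 3 were left in W12 against W1 without W1 replicate 2 or without either W12 library.

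Of the 46 other pathway genes listed, 26 were tested. These lists, too, were chosen with earlier results of these data known, so the counts are a description. Against D0, 6 of them passed at W1 (beside 9.89% of all genes tested), 6 at W2 (15.7%), 11 at W6 (32.4%) and 15 at W12 (43.0%). At W1, 3 were higher (Bmp6, Acvr2b and Sostdc1) and 3 lower (Bmp3, Acvr2a and Skil), and at W2, 4 rose and 2 fell. Of these counts of 6, 2 were left at W1 without W1 replicate 2 and 2 at W2 without W2 replicate 2. At W6, 2 rose and 9 fell, and at W12, 4 rose and 11 fell, beside 14.1% of all genes that fell at W6 and, in the scaling as deposited, 25.1% at W12. The median change over these genes was −0.47 at W6 and −0.52 at W12 on the log2 scale, against 0.08 and −0.08 for all genes. Without D0 replicate 2, 6 passed at W6 (1 higher, 5 lower) and 9 at W12 (2 higher, 7 lower).

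**Figure D4:**
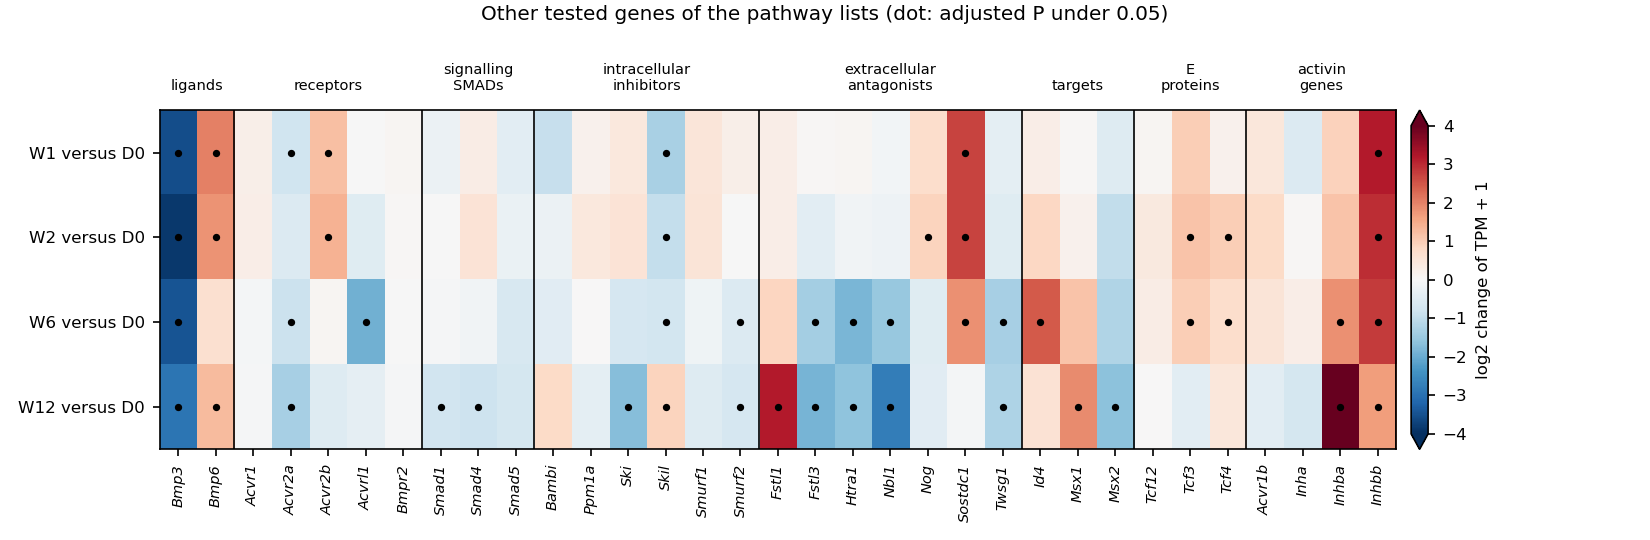
Log2 change of TPM + 1 from D0 (colour, scale from −4 to 4) at W1, W2, W6 and W12 (vertical) of the other tested genes of the BMP lists, the E proteins and the activin genes (horizontal, grouped by role); dots mark an adjusted P under 0.05. Inhbb is higher at all 4 timepoints and Sostdc1 at W1, W2 and W6, whereas Nbl1, Htra1, Twsg1 and Fstl3 are past the threshold, as lower, at W6 and W12 and not at W1 or W2.

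Of the other BMP targets, Msx2 fell from 5.53 and 11.1 TPM at D0 to 1.29 and 2.51 TPM at W12 (−1.65, adjusted P = 0.0133, lost without D0 replicate 2 or without W12 replicate 1), and its relative Msx1 rose from 0.667 and 0.218 TPM at D0 to 4.34 and 4.31 TPM at W12 (1.90, adjusted P = 0.00841, lost without D0 replicate 2). Id4, the fourth Id gene, which was added after its values were seen, rose from 5.13 and 4.04 TPM at D0 to 10.2 and 80.6 TPM at W6 (2.44, adjusted P = 0.0313). W6 replicate 2 was also the library high in Dcn, and without it the change was 1.01 (adjusted P = 0.0251). The call was lost without either D0 library (adjusted P = 0.0641 and 0.138). Atoh8 and Hey1 were not tested, at no more than 1.20 and 1.09 TPM.

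Of the 3 E proteins that Id proteins bind, Tcf4 and Tcf3 passed the test at W2 and W6 and none did at W1 or W12. Tcf4 rose from 21.8 and 26.6 TPM at D0 to 50.7 and 46.1 TPM at W2 (0.98, adjusted P = 0.0278). Tcf3, added after its values were seen, rose from 83.0 and 89.4 TPM at D0 to 190.1 and 190.3 TPM at W2 (1.13, adjusted P = 0.0365). The W2 calls of both were lost without any 1 of the 4 libraries compared, and that of Tcf3 also after median-ratio scaling. Without D0 replicate 2, the W6 calls of Tcf3 and Tcf4 were lost as well (adjusted P = 0.105 and 0.0847). Tcf12 stayed between 20.2 and 28.6 TPM.

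Follistatin also binds activins, and of the 3 subunit genes of activins and inhibins that were tested, Inhbb and Inhba were higher than at D0 at some timepoints and Inha passed at none. Inhbb was at 2.75 and 2.37 TPM at D0, 26.9 and 35.2 TPM at W1, 27.6 and 25.1 TPM at W2, 25.6 and 21.6 TPM at W6, and 8.83 and 11.8 TPM at W12, and its change passed at all 4 timepoints (3.16 at W1, adjusted P = 0.000116, and 1.66 at W12, adjusted P = 0.000459). Inhba did not pass at W1 (adjusted P = 0.186) or W2 (adjusted P = 0.0871). Inhba was at 0.272 and 0.308 TPM at D0, 1.78 and 6.47 TPM at W6 (1.82, adjusted P = 0.0102), and 64.7 and 45.7 TPM at W12 (5.42, adjusted P = 3.57e-05). Inhba thus rose mainly in the grafted libraries and Inhbb before them.

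The genes whose course over the 10 libraries was most like that of each of the 10 were found by the root mean square distance of z-scored log2(TPM + 1), in which 0 is the same course. The nearest to Bmp2 were Utp14b (0.178), Fth1 and Ccrl2, to Bmp4 Immp1l (0.18), Serpina3b and Cebpg, and to Bmp7 Mapk3 (0.237), Papss1 and Usp6nl. Near Id1 were Klf10 (0.298), Nup54 and Ier5, near Id3 Irf7 (0.281), Nfil3 and 4921524J17Rik, and near Id2 Cd74 (0.38), Ube2l6 and Tnnt1. Fst lay near Gm43558 (0.185), Mrps9 and Bex3, and Smad6 near Csnk1g3 (0.183), Fkbp11 and Ssu72. The distances were larger for Bmpr1a, with Mir1938 (0.444), Ywhaz and Rgs2, and for Smad7, with Gm47101 (0.441), Btbd3 and Gm15801. Among the 10 genes themselves, Bmp2 and Bmp4 were the nearest pair (0.446), and Bmp2 and Id3 came next (0.646).

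The 250 bases before the RefSeq start were available for 5 of the 10 genes (GRCm38.p6). The motifs searched, on both strands, were GGCGCC, a GC-rich element of BMP SMADs, CAGAC, a SMAD4 element, and ACAAT, the core of SOX motifs. The RefSeq start lies inside the gene as annotated by GENCODE for some of them, so that 250 of these bases of Id3, 161 of Id2 and 141 of Bmpr1a fall in annotated exons, and 0 of Smad6 and Bmp4. GGCGCC was found in Id2 and Bmpr1a, CAGAC in Id3 at 2 places, ACAAT in Smad6, and none of them in Bmp4. Over all 32851 promoters of this length, 9.59% held GGCGCC, 42.2% CAGAC and 27.7% ACAAT, and no readout of binding was analysed here.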

How the data were processed

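RNA of 10 libraries of FACS-sorted EpdSCs was analysed. Libraries were made with a SMARTer low-input kit and sequenced on NovaSeq SP according to the study's methods, whereas the labels name NextSeq or NovaSeq SP and the series' design text HiSeq or NovaSeq SP, so a sequencing batch could not be checked. The authors trimmed reads with Skewer, quantified transcripts with Salmon 1.4.0 on a GENCODE index of GRCm38 (release M24) to which the transgene was added, and deposited TPM per gene made with Tximport 1.12.3. TPM carry no read counts, so library depth and counting error are unknown. The deposited hair placode table holds the authors' own DESeq2 comparison (log2 fold changes and p-values) and was not used here.

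Of all genes, the 13110 whose mean reached 1 TPM were tested on log2(TPM + 1) with limma 3.58.1 in R 4.3.3, in 1 fit of the 5 timepoint means over the 10 libraries (eBayes with trend). P values were adjusted by Benjamini-Hochberg over these genes, with a threshold of 0.05. Changes of genes with low TPM are understated on this scale. A fit that leaves 1 library at a timepoint assumes that it varies like the others. The step was tested on simulated data. The study names its replicates biological, with 2 libraries a timepoint. The spread of a gene is pooled over the 5 timepoints and moderated over all genes tested. Its SE is therefore the same in every comparison, whatever the spread of the libraries compared. For same-numbered libraries the labels give nothing in common but the number.

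The 10 genes and all lists were chosen with earlier results of these data known. Of the lists, the 20 genes with the smallest adjusted P among those past the threshold against D0 were named, with untested genes of the same class as any of the 10, except 1 untested gene that is not reported here. For each of the 10, the 3 genes nearest in course were named. Positions come from GENCODE M21 on GRCm38, an earlier release than the authors used. Python 3.11.15 with pandas 2.3.3, numpy 2.4.6 and matplotlib 3.10.9 made the tables and plots. The fit was repeated with a pseudocount of 0.1, without a filter beyond a TPM above 0, with a minimum mean of 5 TPM, after quantile normalization or median-ratio scaling, without the trend in eBayes, on the 4 libraries of a comparison, with a replicate block, without each library in turn, and with a log2 change of 1 required as well. Fits without the grafted libraries and with crossed replicate numbers, and the alternatives for the pathway lists and for pairs of timepoints that are not successive, were added after seeing the data.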

Additional observations from a re-analysis of the deposited data

Results flagged for a closer look

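The changes from D0 at W6, in skin that was not grafted, and at W12, in grafted skin, differed by the test of W12 against W6 in 4 of the 10 genes, beside 20.2% of all genes, and in 2 of the 10 without either W12 library, when the Bmp2 and Id2 calls were lost. The change at W12 minus that at W6, on the log2(TPM + 1) scale, was 1.92 for Id3, 1.57 for Id2 and 1.06 for Bmp2, and −1.31 for Bmp7. Both W12 libraries lay above both W6 libraries for Id3, Id2 and Bmp2 and below both for Bmp7. The W12 libraries also held the endothelial markers (68.7 and 167 TPM, against 3.33 and 5.21 TPM at W6), whose part in these differences was not tested, and grafting and time cannot be told apart.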

How the results depend on the processing

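The alternatives gave 1132 values of a single gene with the same direction and side of the threshold, 92 that lost the call, 22 that gained it and 24 of the opposite sign, none of which passed the test with or without the alternative. With all genes above 0 TPM in the fit, the count of the 10 genes past the threshold became 2 at W1 (from 4), 3 at W2 (from 6), 0 from W2 to W6 (from 1), 2 from W1 to W6 (from 4) and 4 from W1 to W12 (from 7), and that of the other pathway genes 3 at W1 (from 6), with 38965 genes tested instead of 13110. With only the 4 libraries compared, it was 2 from W1 to W2 (from 0) and 0 from W2 to W6, and for the other pathway genes 3 at W1 and 4 at W6 (from 11). Without the grafted libraries it was 0 from W2 to W6, and with a log2 change of 1 required it was 2 from W1 to W12. Leaving out each library in turn gave 2 to 5 at W1, 3 to 5 at W2, 0 to 2 from W2 to W6, 2 to 5 from W6 to W12 and 3 to 6 from W1 to W12, and for the other pathway genes 2 to 5 at W1, 2 to 6 at W2, 6 to 13 at W6 and 9 to 15 at W12 (from 15). The cause was not tested.

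Signs turned only in changes that did not pass. When each library was left out, Id2 ranged from −0.54 to 0.29 at W1 and from −0.37 to 0.45 at W2 against D0, where median-ratio scaling gave −0.017, and Smad7 from −1.13 to 0.033 at W2. From W1 to W2, Bmpr1a ranged from −0.17 to 0.19, Smad6 from −0.042 to 0.22, Smad7 from −0.18 to 0.65, Id2 from −0.22 to 0.56 and Id3 from −0.19 to 0.70. From W2 to W6, Bmp7 ranged from −0.37 to 0.25, Bmpr1a from −0.10 to 0.26 and Fst from −0.72 to 0.69, and from W6 to W12 Bmpr1a from −0.0072 to 0.10 and Fst from −1.24 to 0.17. Smad7 ranged from −0.57 to 0.27 from W1 to W6 and from −0.39 to 0.44 from W1 to W12, and Bmpr1a from −0.058 to 0.30 from W2 to W12.

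The deviations of same-numbered libraries correlated between −0.129 and 0.182 over all genes tested. This does not decide whether single genes share a replicate effect. Id2 was higher in replicate 1 than in replicate 2 at all 5 timepoints. With the replicate block, 4, 6, 6 and 5 of the 10 genes passed against D0 at W1, W2, W6 and W12. Id2 was gained at W6 and W12 (adjusted P = 0.0396 and 0.0294) and Smad6 was lost at W6 (adjusted P = 0.0653). With crossed numbers in the 4 libraries compared, 3 passed at W1, 5 at W6 and 3 from W6 to W12, and of the other pathway genes 3 at W1 and 6 at W6. Over all genes, the count past the threshold ranged from 347 to 1773 at W1 (1296 as reported), from 652 to 2568 at W2 (2058), from 1094 to 5047 at W6 (4251), from 3156 to 6168 at W12 (5642), from 0 to 80 from W1 to W2 (15), from 207 to 2626 from W2 to W6 (2137) and from 761 to 2846 from W6 to W12 (2642). Median-ratio scaling turned the split at W1 from 759 higher and 537 lower to 603 higher and 669 lower. TPM give no depth, so what depth limits was not tested.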
